A study of Mus musculus with 14 samples.

Results

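The regions described here are places in the genome of E14 mouse embryonic stem cells where HA-tagged p53 was found by chromatin immunoprecipitation and sequencing (ChIP-seq) but where neither of the deposited H3K27ac lists had a region, after doxorubicin or after vehicle. They were chosen from the 11282 p53 regions of the series by overlap of at least 1 bp. Left out first were 417 regions that also appear in the HA ChIP of untagged cells, then 1930 that lie in a vehicle H3K9me3 region. Of the 8935 regions that remained, 2507 (28.1%) touched no H3K27ac region and are the subject of this account. For comparison, 2786 had H3K27ac in doxorubicin only, 3599 in both treatments and 43 in vehicle only. Absence of H3K27ac, absence of vehicle H3K9me3 and absence from the untagged list are therefore how the regions were picked, and are not results.

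The transcription factor p53 is stabilised when DNA is damaged and binds DNA as a tetramer, at a pair of decamer half-sites. Its best known targets carry such sites near their promoters, where p53 recruits acetyltransferases. H3K27ac is an acetylated histone found at active regulatory elements, and H3K9me3 is a methylated histone found in silent, compact chromatin. Mouse embryonic stem cells express p53 at a high level and stabilise it further when their DNA is broken.

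The groups used are H3K27ac ChIP after doxorubicin, H3K9me3 ChIP after doxorubicin, input chromatin after doxorubicin, HA ChIP where p53 carries the tag, HA ChIP with no tag, and the H3K27ac and H3K9me3 ChIPs after vehicle, with 2 libraries in each of the 7 groups. Doxorubicin, which poisons topoisomerase II and breaks DNA, was given at 1 µM for 6 h, followed by 6 h without drug and harvest at 12 h after the start, and the vehicle was DMSO on the same schedule. All cells were E14 cells grown in 2i and LIF medium. Whether the HA libraries came from treated cells, and how the tag was introduced, was not given in the sources used here, and the titles give the 2 p53 libraries 1 and the same replicate number. Each group has 1 list called on its pooled libraries, so every region has 1 value per group, no comparison has a replicate check, and the 95% Wilson intervals given cover counting error only. Whether a difference exceeds the spread between replicates cannot be told from these lists.

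The lists rest on 17036528 fragments for H3K27ac in doxorubicin and 20647895 in vehicle, 14402634 for H3K9me3 in doxorubicin and 15992125 in vehicle, 45238471 for p53, 49588950 for the untagged ChIP and 16583331 for the input, all after removal of duplicates. They hold 112259 and 82177 H3K27ac regions and 78890 and 60836 H3K9me3 regions for doxorubicin and vehicle. The lowest summit listed for H3K27ac had a pileup of 8 fragments in doxorubicin and 9 in vehicle, so acetylation below that level would not be seen. All 12 embryonic stem cell markers examined, Pou5f1 and Nanog among them, had H3K27ac within 1000 bp of a gene end in both treatments. Of 12 fibroblast markers, 7 had it in doxorubicin and 2 in vehicle, with Col1a2, Col3a1, Postn, Dcn and Lum in neither list. The part of other cells in the results was not tested.

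Sequences show 2 settings in which these regions lay close to a transcribed unit. The first is the miR-34b and miR-34c cluster, which is a classical p53 target in mouse and human, and whose products share a seed with miR-34a. The mature sequences are shown because a member lies beside this p53 target. They come from RefSeq (GRCm38.p6), with the seed (bases 2 to 8) in capitals.
mmu-miR-34b-5p: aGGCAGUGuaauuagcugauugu
mmu-miR-34a-5p: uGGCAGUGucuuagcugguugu
mmu-miR-34b-3p: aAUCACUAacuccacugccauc
mmu-miR-34c-3p: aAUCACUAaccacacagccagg
The 5p arms of miR-34b and miR-34a have the seed GGCAGUG, and the 3p arms of miR-34b and miR-34c have the seed AUCACUA.

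The second setting is the few promoters that overlapped a member. RefSeq promoter sequences (GRCm38.p6, 250 bases before to 50 after a gene's start) were searched for the p53 full site, a pair of half-sites with the C and G of the core kept, at most 3 mismatches in all and a spacer of at most 13 bases. The half-site reads the same on both strands. The 4 promoters shown hold the summit of their member, 3 of them with a full site and 1 without. Capitals mark the half-sites of 1 full site in each of the 3, and other pairs that meet the rule are not marked. Gm52001 was added after the search for its site.
Gm5724: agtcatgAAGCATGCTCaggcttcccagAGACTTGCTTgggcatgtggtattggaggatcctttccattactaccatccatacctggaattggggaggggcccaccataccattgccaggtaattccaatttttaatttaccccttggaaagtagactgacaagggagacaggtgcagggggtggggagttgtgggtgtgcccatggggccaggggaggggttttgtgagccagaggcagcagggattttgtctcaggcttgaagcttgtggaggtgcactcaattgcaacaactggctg
Gm29946: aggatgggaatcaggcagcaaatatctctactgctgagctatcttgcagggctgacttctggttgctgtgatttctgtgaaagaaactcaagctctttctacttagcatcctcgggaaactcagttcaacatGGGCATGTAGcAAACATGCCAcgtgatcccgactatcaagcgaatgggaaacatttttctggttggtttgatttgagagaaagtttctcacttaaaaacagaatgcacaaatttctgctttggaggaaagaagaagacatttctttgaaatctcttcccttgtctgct
Gm52001: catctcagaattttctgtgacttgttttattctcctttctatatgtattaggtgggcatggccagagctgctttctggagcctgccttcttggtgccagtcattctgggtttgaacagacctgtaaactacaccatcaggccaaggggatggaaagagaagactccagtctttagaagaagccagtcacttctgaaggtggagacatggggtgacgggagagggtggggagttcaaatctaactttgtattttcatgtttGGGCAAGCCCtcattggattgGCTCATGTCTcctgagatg
Adcy10: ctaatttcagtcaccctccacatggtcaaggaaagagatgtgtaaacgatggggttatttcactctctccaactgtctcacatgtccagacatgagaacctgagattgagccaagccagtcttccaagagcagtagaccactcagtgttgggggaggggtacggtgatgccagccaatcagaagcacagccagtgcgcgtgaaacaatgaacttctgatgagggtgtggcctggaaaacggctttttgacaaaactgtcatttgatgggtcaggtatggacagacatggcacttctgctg
The Gm5724 window is chr6:141778070-141778369 on the minus strand, Gm29946 is chr19:33122149-33122448 on the plus strand, Gm52001 is chr12:106820762-106821061 on the plus strand and Adcy10 is chr1:165484933-165485232 on the plus strand. In Gm5724 the site had 0 mismatches and a spacer of 11 bases, and its middle lay 22 bases from the p53 summit. In Gm29946 the site had 3 mismatches and a spacer of 1 base, and the summit fell on its middle. Gm52001 had 2 mismatches, a spacer of 11 bases, and a middle 37 bases from the summit. These values are for the marked site alone. Gm5724 and Gm52001 each also hold a pair without a spacer that meets the rule, with more mismatches and nearer the summit. The distances given for these promoters are therefore not the shortest. In Adcy10, which encodes the soluble adenylyl cyclase, the search found no full site with at most 3 mismatches.

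Such promoters were few. Only 10 members overlapped 11 of the 32851 promoters of the table, which holds none for chromosome 18, and a full site was found in 3 of the 11 (27.3%). It was found in 11 of 25 promoters (44.0%) that overlap a region with H3K27ac in doxorubicin only, in 54 of 106 (50.9%) with H3K27ac in both treatments and in 15.6% of all promoters of this length. With 3 matches the share for the members has wide error. The other promoters belong to 2310008N11Rik, Gm40392, 2310050C09Rik, Gm33980, Gm46650 and Taar7b, a trace amine receptor, and none of these 6 held a full site. Gm29946 has another promoter entry, also without one.

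Compared with other p53 regions, the members were weaker and shorter. Fold enrichment, the authors' ratio of pileup to background at the highest summit, had a median of 6.49 in the members (quartiles 4.91 and 9.58), against 7.37 in regions acetylated in doxorubicin only and 8.47 in regions acetylated in both treatments. At least 20-fold enrichment was reached by 152 members (6.06%, interval 5.19 to 7.07%), by 12.1% (11 to 13.4%) of regions acetylated in doxorubicin only and by 18% (16.8 to 19.3%) of those acetylated in both, where 12.8% of the 8935 regions did so. Median length was 350 bp in the members, 416 bp with H3K27ac in doxorubicin only and 465 bp with it in both. A longer region is more likely to touch an H3K27ac region by 1 bp. Length is thus not independent of how the members were picked, and its difference is a description. With the summit and 100 bp to either side in place of the whole region, the median fold enrichment of the members was again 6.49. The 2507 members cover 0.956 Mb, and 23 of them have more than 1 summit.

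The relation to strength was not even. Ordered into quartiles of fold enrichment from weakest to strongest, members made up 30.6%, 36.3%, 28.0% and 17.4% of the p53 regions. The weakest quartile thus held a smaller share of members than the second, and from there the share fell in both stronger quartiles, with intervals of 34.3 to 38.3%, 26.2 to 29.9% and 15.9 to 19% that do not overlap. In the strongest quartile 53.2% had H3K27ac in both treatments. The share acetylated in doxorubicin only was between 29.2% and 32.8% in every quartile. Of the 100 p53 regions with the highest −log10 q, 4 were members, of the top 500 there were 35 and of the top 1000 there were 102, and the first member ranked 46.

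**Figure D1:**
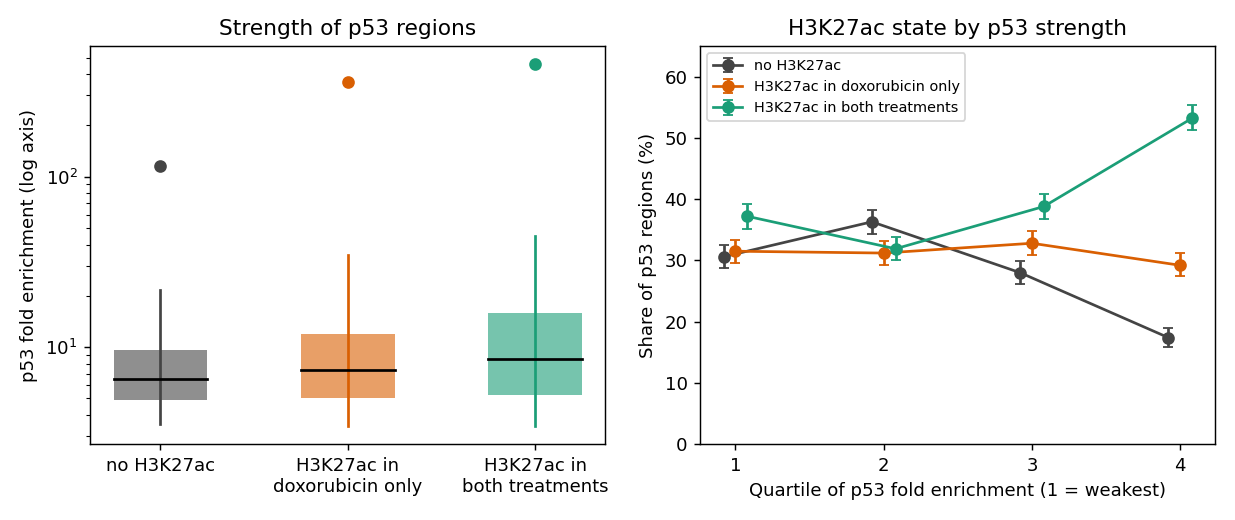
Left, p53 fold enrichment on a log axis for regions without H3K27ac, with H3K27ac in doxorubicin only and in both treatments; boxes span the quartiles, black lines are medians (6.49, 7.37 and 8.47), thin lines run over the middle 90% of regions and points are the highest region. Right, the share of each class in quartiles of fold enrichment with 95% Wilson intervals; regions without H3K27ac fall to 17.4% in the strongest quartile.

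None of the members appeared in the input list. The p53 regions were called against this same input, so overlaps were unlikely from the start and their absence is no result about the members. A count of 0 allows 3 counts, or 0.120% of 2507, and the Wilson upper limit is 0.153%. Of all regions, 4 of the 8935 (0.0448%) did. The strongest members were not marginal. The region of highest −log10 q lies at chr10:114260225-114260924 (mm10), 138269 bp from the nearest gene end, with a pileup of 805 fragments and a fold enrichment of 101. Its nearest H3K27ac was 116477 bp away in doxorubicin and 116560 bp away in vehicle. The highest fold enrichment, 115, was at chr11:71633447-71633997, also in no gene, with H3K27ac 339 bp away in doxorubicin and 84781 bp away in vehicle. The other 3 of the 5 strongest regions with no gene within 5000 bp had fold enrichments of 82.1, 70.4 and 55.8, on chromosomes 10, 6 and 16, and all 3 lay more than 50 kb from H3K27ac of either treatment.

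The 25 genes with the strongest members, taken as the gene that holds the summit or else has an end within 5000 bp, had fold enrichments between 22.4 and 103. In 21 of them the summit was inside the gene, 21 are protein-coding and 13 are longer than 100 kb. Some of the 25 encode regulators of transcription. Tshz1, a zinc finger homeobox factor, had a region of 103-fold enrichment 35525 bp inside the gene, with H3K27ac 21541 bp away in doxorubicin and 38421 bp away in vehicle. Setbp1, which encodes a SET-binding protein mutated in developmental syndromes and leukaemia, had a 74.6-fold region, and Mllt3, a subunit of the super elongation complex, had a 47.5-fold region. At Hnf4g, a nuclear receptor gene, a 37.4-fold region had its summit 760 bp outside a gene end, with H3K27ac 274106 bp away in doxorubicin and 5209 bp away in vehicle.

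Of the 25, Csmd3 and Cdh12 belong to the list of neuronal adhesion and synapse genes, and Cadm2 and Ntng1, which are not in it, also encode adhesion proteins of nerve cells. Csmd3 had a 42.8-fold region, Cdh12, a cadherin, a 40.2-fold region, Cadm2, a synaptic adhesion molecule, a 33.8-fold region and Ntng1, which encodes netrin G1, a 30.8-fold region. Each lay more than 100 kb inside its gene. The nearest doxorubicin H3K27ac was 317346 bp from the Csmd3 region, 127262 bp from the Cdh12 region, 95182 bp from the Cadm2 region and 11936 bp from the Ntng1 region.

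The 25 also include Impg2, which encodes a proteoglycan of the retina (72.7-fold), Myot, a muscle Z-disc protein (33.2-fold), Ndst4, a heparan sulfate sulfotransferase (36.4-fold), Plce1, a phospholipase C (34.1-fold), Samsn1, an adaptor of lymphocytes (44.6-fold), and Vmn2r63, a vomeronasal receptor (34.5-fold). Gars, which encodes glycyl-tRNA synthetase and is used by every cell, had a 22.4-fold region with its summit 1523 bp outside the gene and H3K27ac 409 bp away in doxorubicin and 676 bp away in vehicle. H3K27ac in doxorubicin was also listed within 1000 bp of the regions of Gm31418 (287 bp), Tesc (333 bp), Vwa8 (421 bp) and Impg2 (569 bp), whose vehicle distances were 3942 bp, 1465 bp, 141 bp and 62970 bp. Ccser1 had a 67.3-fold region and Armc3 a 28.0-fold region. The entries Gm2977, Gm3050, Gm5246, Gm26843 and Gm4785 complete the 25, and no role is given for them.

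Members often lay far from genes. A summit lay within 1000 bp of a gene end in 110 members (4.39%, interval 3.65 to 5.26%), against 8.35% of all 8935 regions, 7.32% (6.41 to 8.35%) with H3K27ac in doxorubicin only and 11.9% (10.9 to 13%) with it in both treatments. Outside genes and over 1000 bp from their ends lay 52.0% (50.0 to 53.9%) of members, against 38.6% of all, 39.8% with H3K27ac in doxorubicin only and 28.4% with it in both. The rest, 43.6% of members, 52.8% with H3K27ac in doxorubicin only and 59.7% with it in both, lay inside genes. The median distance to a gene end was 21666 bp in members, 12899 bp with H3K27ac in doxorubicin only and 7778 bp with it in both. The intervals of the members overlapped neither of the acetylated classes for either position. Of the 2649 p53 regions with no gene within 5000 bp, 1122 (42.4%) were members, and of the 6286 at a gene, 1385 (22%).

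Against regions acetylated in both treatments, the low share of members at gene ends held across p53 strength. In quartiles from weakest to strongest, summits at a gene end made up 5.12%, 4.81%, 3.68% and 3.35% of members and 12.3%, 11.1%, 12.8% and 11.5% of regions acetylated in both. For regions acetylated in doxorubicin only the shares were 8.40%, 8.31%, 9.28% and 2.91%. Their intervals overlapped those of the members in every quartile but the third, narrowly in the first and second. In the strongest quartile the interval was 1.87 to 4.50%, against 1.97 to 5.65% in the members. Strong members and strong regions acetylated in doxorubicin only were thus not told apart by this measure.

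Members also stood more alone. No other p53 region lay within 50 kb of 64.5% of members, of 52.8% of regions acetylated in doxorubicin only and of 46.1% of those acetylated in both. Within the same distance members had a median of 1 doxorubicin H3K27ac region, against 5 with H3K27ac in doxorubicin only and 13 with it in both, and of 1 vehicle H3K27ac region, against 2 and 8, leaving out any that touch the p53 region. These counts come from the lists that chose the members and are given as a description. H3K9me3 nearby hardly differed, with a median of 2 doxorubicin regions within 50 kb in each of the 3 classes.

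Among members that did have H3K27ac close by, it was more often that of doxorubicin. These distances come from the same lists that chose the members and are a description, and since a member has 1 nearest region per list, the counts at the different distances are not independent. The nearest doxorubicin H3K27ac region lay within 1000 bp of 326 members and the nearest vehicle region within 1000 bp of 62, a ratio of 5.26, while the whole doxorubicin list is 1.37 times as long as the vehicle list. The ratio was 1.59 from 1001 to 5000 bp (281 and 177 members), 1.19 from 5001 to 10000 bp (236 and 199) and 0.899 from 10001 to 50000 bp (825 and 918). Within 1000 bp, 281 members (11.2%) had doxorubicin H3K27ac only, 17 (0.678%) vehicle H3K27ac only and 45 both, which leaves 2164 (86.3%) with neither. With lists of equal length the counts within 1000 bp were 242 and 70. The flanking H3K27ac regions had a median fold enrichment of 3.45 in doxorubicin and 3.8 in vehicle, somewhat under the medians of all autosomal regions of these lists (4.03 and 4.34). They stood beside weak as well as strong p53 regions, at 15.4%, 13.3%, 11.2% and 11.1% of members in the 4 quartiles for doxorubicin.

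The boundary of the choice runs through this group. Within 10 bp of an H3K27ac region lay 8 members and within 50 bp 35, while 7 other p53 regions overlapped H3K27ac by at most 10 bp and 41 by at most 50 bp. The description of the members as sites without acetylation therefore holds for the intervals as listed, and for 343 of them (13.7%) the mark was listed within 1000 bp.

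**Figure D2:**
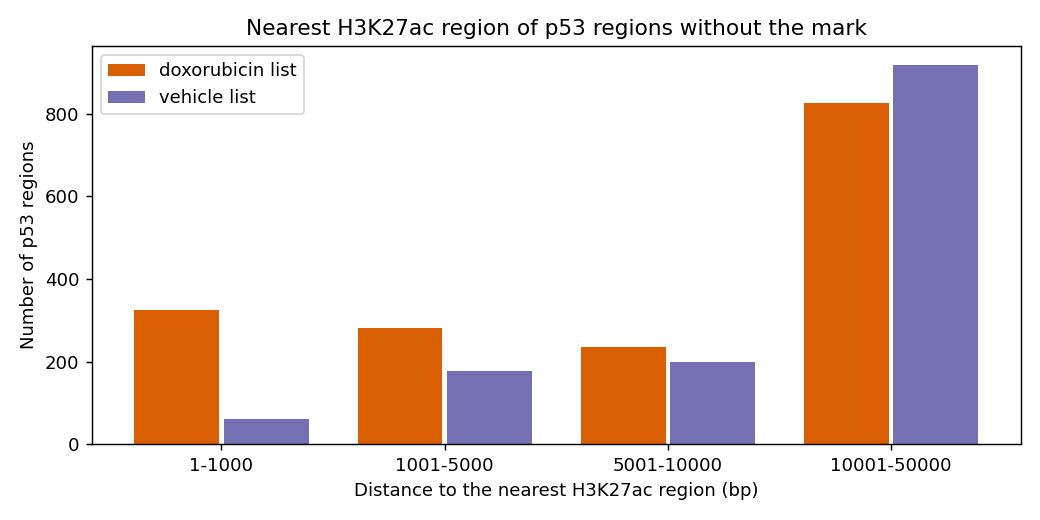
Number of p53 regions without H3K27ac (of 2507) whose nearest H3K27ac region lies at each distance in bp, for the doxorubicin list and the vehicle list. At 1 to 1000 bp the counts are 326 and 62, and at 10001 to 50000 bp they are 825 and 918.

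H3K9me3 after doxorubicin was not part of the choice, although its vehicle counterpart was barred from all 8935 regions. It was listed at 150 members (5.98%, interval 5.12 to 6.98%), against 7.13% of all (the share in members was 21.5% when regions in vehicle H3K9me3 were kept), 8.69% (7.70 to 9.79%) with H3K27ac in doxorubicin only and 6.64% (5.87 to 7.5%) with it in both. Over all strengths, members thus had this mark less often than regions acetylated in doxorubicin only, with intervals that do not overlap, while the interval of those acetylated in both overlapped that of the members. The mark was scored by an overlap of 1 bp, and the shorter length of the members was not adjusted for. In quartiles of p53 strength the shares were 5.56%, 4.56%, 6.24% and 9.28% in members, 4.84%, 4.58%, 9.28% and 16.5% in regions acetylated in doxorubicin only, and 4.10%, 1.68%, 4.04% and 13.3% in regions acetylated in both. In the second quartile the members' interval (3.33 to 6.23%) lay above that of regions acetylated in both (0.964 to 2.91%). In the strongest quartile the members' interval (6.78 to 12.6%) lay below that of doxorubicin-only regions (13.9 to 19.6%) and overlapped that of regions acetylated in both (11.5 to 15.3%).

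**Figure D3:**
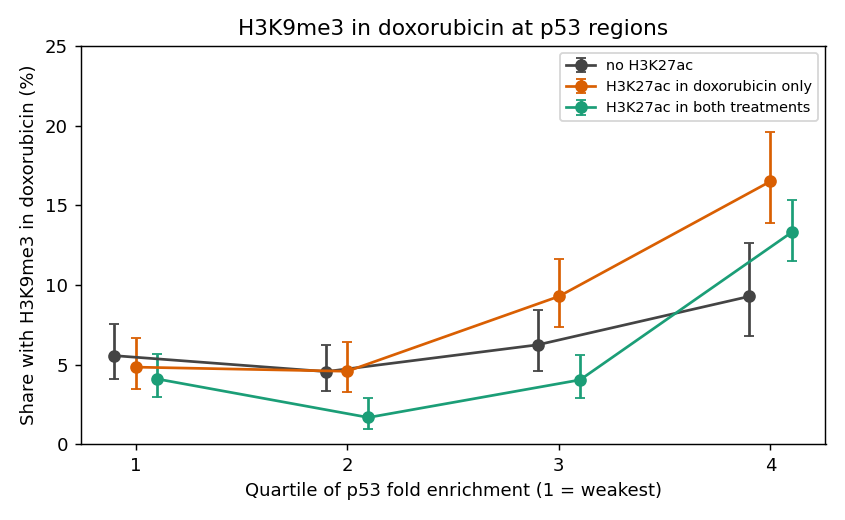
Share of p53 regions with a doxorubicin H3K9me3 region, by quartile of p53 fold enrichment and H3K27ac class, with 95% Wilson intervals. In the strongest quartile the share is 9.28% without H3K27ac, 16.5% with H3K27ac in doxorubicin only and 13.3% with it in both treatments.

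At the 150 members the H3K9me3 fold enrichment had a median of 4.88 and reached 17.4. Vehicle H3K9me3 was listed within 1000 bp of 51 of them and within 10000 bp of 96, so many adjoin a region that was also marked in vehicle. Among the 25 strongest genes, 6 carried doxorubicin H3K9me3 at their member, namely Gm2977, Gm3050, Gm5246, Gm26843, Vwa8 and Vmn2r63. Gm2977 and Gm3050 lie near the start of chromosome 14 with 1700110I01Rik, which also has a member with H3K9me3 in doxorubicin. Fold enrichment at these 3 was 52.9, 36.9 and 23, their summits lie 9863, 9859 and 9805 bp from the nearest end, and vehicle H3K9me3 was 1438, 1420 and 1348 bp away. The other members in the first 10 Mb of this chromosome, at Gm3629 (3.59-fold) and Gm41096 (7.91-fold), had no doxorubicin H3K9me3. This stretch of chromosome 14 holds many similar gene copies, among which reads may have been split, so the values of each are uncertain.

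Long genes held a larger share of members. Among p53 regions in the body or within 5000 bp of a protein-coding gene, members made up 9.29% at genes of up to 10 kb, 8.74% from 10 to 30 kb, 14% from 30 to 100 kb, 21.4% from 100 to 300 kb, 35.7% from 300 to 1000 kb and 59.7% (interval 51.6 to 67.4%) above 1000 kb. At genes above 1000 kb that was 86 of 144 regions, and only 16 had H3K27ac in both treatments. A list of 90 neuronal adhesion and synapse genes, which are typically long, showed the same: 51 of the 90 genes held a member, where 3.06% of the 45073 genes of the table did, and 94 of their 187 p53 regions (50.3%, interval 43.2 to 57.4%) were members. The median gene of this list is 778 kb long, against 7.79 kb in the table. Of genes of at least 300 kb, 49 of 82 in the list (59.8%, interval 48.9 to 69.7%) and 221 of 475 other protein-coding genes (46.5%, interval 42.1 to 51%) held a member. Compared at like length, 41.2% of p53 regions at neuronal genes of 300 to 1000 kb and 57.7% above 1000 kb were members, against 35.2% and 63.8% at other protein-coding genes, and the intervals overlap in both.

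Per Mb of gene the members were no denser in the neuronal genes than in other long genes. There were 1.21 member regions per Mb in the neuronal list and 1.26 in other protein-coding genes of at least 300 kb. All protein-coding genes had 1.03 and all genes 1.22. All p53 regions together numbered 2.41 per Mb in the neuronal list, 3.43 in other long genes and 5.87 in all genes. The counts include regions up to 5000 bp outside a gene, while the Mb are those of gene bodies alone. That raises the density most where genes are short, so long genes cannot be set against all genes by it. Between the neuronal list and other long genes the density of members was close to equal, and that of all p53 regions was lower in the neuronal list. These densities have no replicate error.

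**Figure D4:**
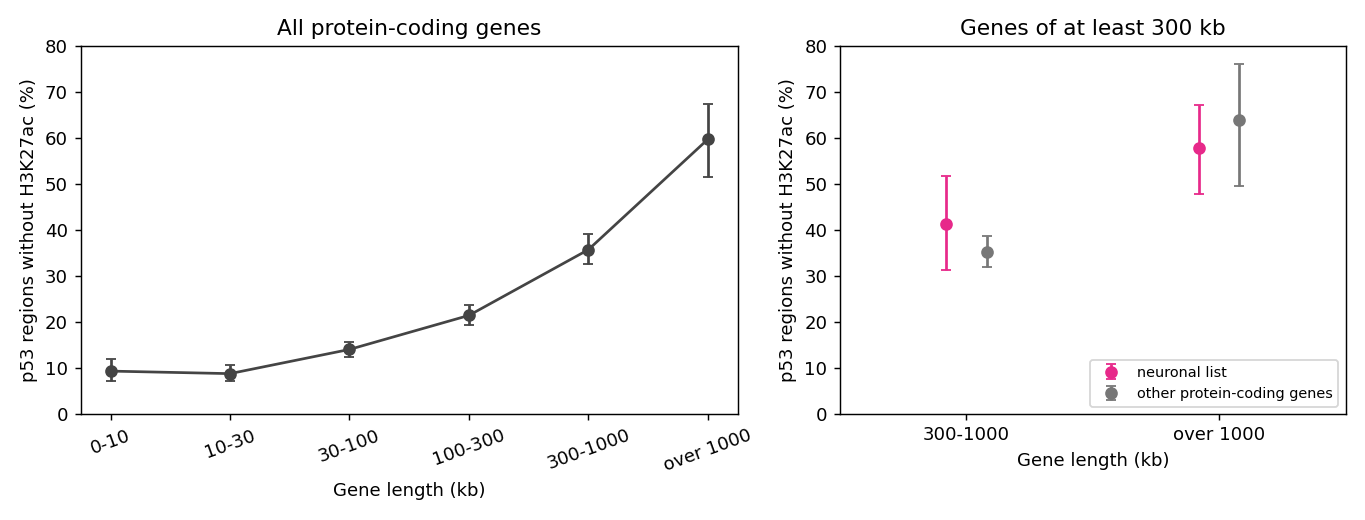
Share of p53 regions without H3K27ac with 95% Wilson intervals. Left, at protein-coding genes by length in kb, with 9.29% at genes of up to 10 kb and 59.7% above 1000 kb. Right, at genes of the neuronal list and other protein-coding genes of 300 to 1000 kb and above 1000 kb, where the intervals overlap.

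Csmd1, a complement control protein of nerve cells, held the most members of any gene, all 5 of its regions among the 8935. Kcnma1, the large-conductance potassium channel, and Lsamp, a neural adhesion molecule, each held 4 members of 4 regions, and Cdh13, a cadherin, held 4 of 11. The strongest in Kcnma1 had a fold enrichment of 16 and in Lsamp of 17.3. Grik2, a kainate receptor subunit, had 1 member of 25.4-fold enrichment with doxorubicin H3K27ac 282 bp away and vehicle H3K27ac 113214 bp away. Fgf12, a regulator of sodium channels, had 1 of 29.4-fold enrichment with H3K27ac 1136 bp away in doxorubicin and 74165 bp away in vehicle. Outside the list, Chrm3, D7Ertd443e and Nckap5 held 4 members each.

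At known p53 target genes nearly all p53 regions were acetylated, but so were most p53 regions at genes of like length. The share of target genes with a member was about that of all genes. Within 1000 bp of a gene end, 0 of 103 p53 target genes had a member, where 0.284% of all genes did, while 29 of the 103 had a p53 region of any class there and 2.14% of all genes did. The 29 divide into 28 with H3K27ac in both treatments and 1 with it in doxorubicin only. Counting the gene body and 5000 bp around it, 49 of the 103 genes had a p53 region of any class, where 13.1% of all genes did. A member was found at 2 of the 103 (1.94%, interval 0.534 to 6.81%), which overlaps the 3.06% of all genes. In this span 3 of 64 p53 regions (4.69%, interval 1.61 to 12.9%) were members, 8 had H3K27ac in doxorubicin only and 53 in both. Members made up 20.7% of the p53 regions at all genes of the table. At protein-coding genes of 10 to 30 kb they made up 8.74% (interval 7.10 to 10.7%), which overlaps the interval of the p53 lists. The median gene of those lists is 17.7 kb long. Genes of cell cycle arrest such as Cdkn1a, Ccng1 and Btg2, of apoptosis such as Bax, Bbc3 and Pmaip1, and of feedback such as Mdm2 had no member.

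The 3 exceptions lie in Trp63 and Tnfaip8, which are 208 and 114 kb long where the median p53 target gene of the lists is 17.7 kb. Trp63, a gene of the p53 family active in epithelia, held 2 members of 6.77-fold and 5.42-fold enrichment, 48302 and 103566 bp from a gene end. They were its only regions among the 8935. The nearer one had H3K27ac 5746 bp away in doxorubicin and 276851 bp away in vehicle. Tnfaip8, an inhibitor of apoptosis, held 1 of 5.07-fold enrichment, 1704 bp inside a gene end.

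The miR-34 genes divided between the classes. The member at chr9:51105612-51106275 (mm10), inside Btg4, has its summit 2297 bp upstream of the Mir34b hairpin and 2832 bp upstream of the Mir34c hairpin. Its fold enrichment was 24.5 and its pileup 146 fragments. H3K27ac was 14026 bp away in doxorubicin and 27946 bp away in vehicle. The nearest p53 region to Mir34a, whose 5p seed is that of miR-34b, lay 19327 bp upstream with a fold enrichment of 115 and had H3K27ac in both treatments. In all, 5 of 1005 miRNA hairpins (0.498%) had a member within 5000 bp, and Mir34b and Mir34c share theirs. Of the hairpins, 21 had a region acetylated in doxorubicin only, 38 a region acetylated in both and 64 (6.37%) a p53 region of any class. The 3 classes hold 2507, 2786 and 3599 regions. The other 3 with a member were Mir184, Mir8092 and Mir6383, with fold enrichments of 3.29, 4.34 and 3.53.

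The other lists are short, and except for muscle and heart genes their intervals include the 3.06% of all genes that held a member. No member lay in or within 5000 bp of the 40 pluripotency genes, the 34 2-cell-state genes found in the table or the 30 housekeeping genes, which had 8, 3 and 1 p53 regions of any class, and the intervals for these counts of 0 reach up to 8.76%, 10.2% and 11.4% of genes. Among lineage regulators Afp, which encodes alpha-fetoprotein of the fetal liver and yolk sac, had a member of 5.84-fold enrichment 161 bp from a gene end, with H3K27ac 31615 bp away in doxorubicin and 31490 bp away in vehicle. Of 36 muscle and heart genes, 4 held a member (11.1%, interval 4.41 to 25.3%), namely Nebl, Dmd, Myh11 and Sgcd. These are 392, 2390, 97.7 and 1018 kb long, in a list whose median gene is 26.3 kb long. Of the other protein-coding genes of at least 300 kb, 46.5% held a member. Of 36 immune cell genes, 3 did (8.33%, interval 2.87 to 21.8%), namely Ptprc, Themis and Prkcq. Muscle and heart genes had 4 members among 16 p53 regions, immune cell genes had 3 among 11, and fibroblast genes had 1 among 5, at Fbn1, a fibrillin. All genes of the table together had 20.7% members among their p53 regions, and with counts this small nothing is read from the shares of the 3 lists. In gene families counted after the lists, vomeronasal receptor genes had 5 members among 7 p53 regions, at 5 of 355 genes. Olfactory receptor genes had 7 among 19, at 7 of 1110 genes (0.631%). Protocadherin and cadherin genes had 15 among 53, at 12 of 97 genes, and solute carrier genes 24 among 113, at 21 of 375. Zfp zinc finger genes had 11 among 72, at 8 of 397 genes, and trace amine receptor genes 1 among 1, at 1 of 15. The interval of the gene share lay below 3.06% for olfactory receptor genes. It lay above 3.06% for protocadherin and cadherin genes and for solute carrier genes. Gene length was not adjusted for in these families.

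On chromosome X the members were the majority. Of its 150 p53 regions 98 were members (65.3%, interval 57.4 to 72.5%), against 27.4% (26.5 to 28.3%) on the autosomes, where the share ran between 16.5% on chromosome 11 and 40.8% on chromosome 3. The difference was present in every quartile of p53 strength, with 74.1%, 70.3%, 73.3% and 46.3% on X and 30.0%, 35.7%, 27.0% and 16.8% on the autosomes. Members on X had a median fold enrichment of 7.65, against 6.40 on the autosomes, so they were not weaker there.

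The lists differ in how much of them lies on X. It holds 1.12% of doxorubicin H3K27ac regions and 1.56% of vehicle ones, 6.80% of doxorubicin H3K9me3 regions and 5.39% of vehicle ones, and 1.91% of p53 regions. Listed H3K27ac regions had median fold enrichments of 4.89 on X and 4.03 on the autosomes in doxorubicin, and of 5.70 and 4.34 in vehicle. The part of these differences in the share of members on X was not tested. Nor was it tested whether H3K27ac is listed as readily on X as on the autosomes. Doxorubicin H3K9me3 was listed at 11 of the 98 members on X and at 5.67% of those on the autosomes. Members on the autosomes alone kept the positions given above, with 4.51% of summits at a gene end and 44.4% inside a gene.

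**Figure D5:**
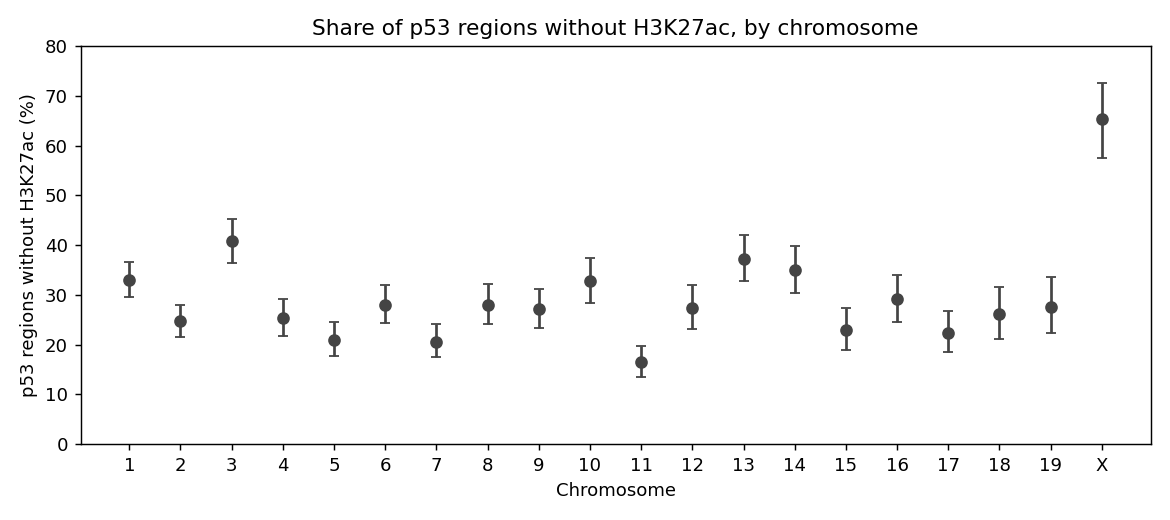
Share of the p53 regions of each chromosome that had no H3K27ac, with 95% Wilson intervals. Chromosome X is at 65.3% and the autosomes lie between 16.5% and 40.8%.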

How the data were processed

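E14 mouse embryonic stem cells were profiled in 14 libraries, 2 for each of 7 groups. The submitters' processing notes name Bowtie2 2.2.6 and mm10. Per the file headers, the authors merged the 2 libraries of a group and ran MACS 2.2.5 at a q cutoff of 0.05, without a control for the histone and input lists and with the input for the HA lists. The deposited signal is the fragment pileup at a summit, deposited q values stand as −log10, and the deposited fold enrichment is the ratio of pileup to background that MACS writes. Other columns hold lengths in bp.

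The 11889 p53 summits were joined by interval, keeping the values of the highest one. An overlap of 1 bp sufficed between lists. Shares carry 95% Wilson intervals, and no p-value is given because each list merges its libraries. Genes, promoters and miRNAs came from RefSeq tables (GRCm38.p6, the sequence of mm10) with 45073 genes, no strand and no exons, so distances are to either gene end. Of 107 p53 target genes 103 matched. A region near several genes was counted once for each gene in the list counts and in the length classes, and once in the comparison at like length. The members, the gene lists and the comparisons were chosen with earlier results of these data known. The named genes were the 25 with the members of highest −log10 q, and list genes with a member. Those singled out for the number or strength of their members (Csmd1, Kcnma1, Lsamp, Cdh13, Grik2, Fgf12, Chrm3, D7Ertd443e, Nckap5) and the chromosome 14 copies were picked after their values were seen.

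Counting of overlaps matched bedtools 2.31.1 in 2500 simulated regions (0 differed). Python 3.11.15 was used with numpy 2.4.6, pandas 2.3.3, scipy 1.17.1 and matplotlib 3.10.9. Alternatives changed the overlap, the q cutoffs, the list lengths, the exclusions, the chromosomes and the gene window. The sequence under the p53 regions themselves was not used here.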

Additional observations from a re-analysis of the deposited data

How the results depend on the processing

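No paired analysis was possible because the libraries of a group were merged before peaks were called, and no replicate could be left out for the same reason. The 8 planned results were recomputed under 11 or 13 alternatives each, and 4 results (the X share, the neuronal share and both flank counts), added after the data were seen, under 9 to 11 of them. Of 131 values, 119 stayed within 1.5 times the count or inside the interval of the value reported. Some of these could hardly move. No member was in the input list, so leaving out input regions changed no result, and the share in the input list was 0 under all 11 alternatives. Keeping untagged regions gave 2512 members. The tally is therefore no measure of robustness. The number of members ran between 2164 (no H3K27ac within 1000 bp) and 3548 (H3K27ac −log10 q of at least 5). With regions in vehicle H3K9me3 kept, there were 3019 members, the share with doxorubicin H3K9me3 was 21.5%, the share inside genes 41.3% and the median fold enrichment 6.28. Requiring overlap of 50% of the shorter region put the H3K9me3 share at 5.04%. A p53 −log10 q of at least 5 put the median fold enrichment at 6.75. An H3K27ac −log10 q of at least 5 put the share of members on X at 76.7%, that at neuronal genes at 66.8%, and the flank counts within 1000 bp at 167 for doxorubicin and 41 for vehicle. Windows of 500 and 5000 bp put 2.19% and 19.3% of summits at a gene end, and at 5000 bp 1 p53 target gene, Tnfaip8, had a member. The settings add, drop or widen what is counted, and the cause of each shift was not tested. Faint acetylation is limited by the depth of the H3K27ac lists.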
